A study of Drosophila melanogaster with 29 samples.

Results

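The subunits of heterotrimeric G proteins are described here in photoreceptor nuclei of *Drosophila melanogaster*. Members were taken by name: the alpha subunits *Galphaq*, *Galphao*, *Galphai*, *Galphas* and *Galphaf*, the beta subunits *Gbeta76C*, *Gbeta13F* and *Gbeta5*, and the gamma subunits *Ggamma30A* and *Ggamma1*. Of these 10 genes, 9 had a row among the 7602 genes of the deposited table. *Galphaf* (FBgn0010223), an alpha subunit of insects, had no row, and since the filter that chose the genes is not given in the sources used here, this sets no limit on its level.

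A heterotrimeric G protein relays a signal from a receptor of the membrane to an enzyme or channel inside the cell. The alpha subunit binds GTP when the receptor is active, parts from the beta and gamma dimer and acts on its effector until the GTP is hydrolysed. In fly photoreceptors the receptor is rhodopsin, the alpha subunit is *Galphaq*, and the effector is the phospholipase C encoded by *norpA*. *Gbeta76C* and *Ggamma30A* encode the eye beta and gamma subunits that work with *Galphaq*, and the other members serve receptors in many tissues.

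The series holds 29 samples in 9 groups, of which the 3 nuclear RNA-seq libraries are analysed here, and the 26 samples of chromatin assays are not analysed here. The RNA came from male flies aged 10 days, mutant for *w* and carrying the *ry*[506] allele. Besides the mutant *w*, the genotype of these flies includes mC, a *w*+ marker carried with a transgene. Their nuclei were tagged by UAS-GFP-Msp300KASH, a green fluorescent protein fused to the nuclear envelope domain of Msp300 and inserted at attP2, under rh1-GAL4, a driver made from the *ninaE* promoter and marked with *ry*+. That promoter is active in outer photoreceptors, so the libraries stand for that class of cell as far as the tag isolates it. All 3 libraries share this genotype, sex and age, and the labels give no RNA control group, so levels are described and no groups are compared. The labels call the libraries separate samples but do not say whether they came from separate batches of flies, so any p-value measures only the spread between these samples, which may be technical.

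Reads assigned to genes of the table numbered 3781302, 3051440 and 3769863 in replicates 1, 2 and 3. All 12 photoreceptor markers, *ninaE* and *trp* among them, lay in the top 10% of genes, with mean normalized counts of 3577 to 72860. Markers of glia (9 of 9 with a row) summed to 912 to 965 normalized counts per library, those of other neurons (9 of 10) to 650 to 771, and those of cone and pigment cells (5 of 5) to 462 to 501. Muscle markers (8 of 10) summed to 6812 to 7650 and those of fat body and blood cells (5 of 10) to 3268 to 4290, mostly from *Tm1* and *apolpp*. No marker was at 0 in all 3 libraries, and 1 (*Pdf*) was at 0 in a library. How far other cells contributed to the members was not tested, and in bulk nuclei fewer cells of a type and less RNA per cell cannot be told apart.

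The visual subunits came first within each kind of subunit. A normalized count here is a gene's read number over its library's size factor, which corrects for differing depth, and 1 read was worth 1.29, 1.49 and 1.32 normalized counts in replicates 1, 2 and 3. *Galphaq*, *Gbeta76C* and *Ggamma30A* each exceeded every other member of their kind with a row in all 3 libraries, both as normalized counts and after division by the span of the gene. Their mean levels lay at percentiles 93.8, 97.3 and 99.9 of the genes in the table. Of the 9 members, 8 were above the table median of 56.8 normalized counts and 4 were in the top 10%.

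Among alpha subunits, *Galphaq* (FBgn0004435) had 1261, 997 and 1432 reads in replicates 1, 2 and 3, which makes 1622, 1489 and 1893 normalized counts. Replicate 3 was the highest library and replicate 2 the lowest, and the mean was 1668 ± 206 (SD, n = 3). The gene lies on chromosome 2R from 12612740 to 12623197 in Release 6 of the genome and spans 10.5 kb. *CG45086*, annotated as a protein-coding gene of its own and named in RefSeq's synonyms as an upstream reading frame of *Galphaq*, starts at the same base and covers 67.7% of its span. *CG45086* had no row, so how its reads were assigned is unknown and the value of *Galphaq* is uncertain to that extent.

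*Galphao* (FBgn0001122) encodes the Go alpha subunit, known from Frizzled signalling and from the nervous system. It had 886, 907 and 1001 normalized counts in replicates 1, 2 and 3, with a mean of 931 ± 61.1 (SD, n = 3). Its highest library was 1.13-fold its lowest, and counting alone would give an SD of 35.7 on average. The gene spans 27.7 kb of chromosome 2R, from 10437985 to 10465701. *Cyp49a1* covers 34.4% of that span and had 19, 18 and 6 reads, few beside the 689, 607 and 757 reads of *Galphao*.

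*Galphas* (FBgn0001123) encodes the subunit that stimulates adenylyl cyclase. In replicates 1, 2 and 3 it had 579, 459 and 572 normalized counts, a mean of 537 ± 67.7 (SD, n = 3). Replicate 2 stood below the other libraries, which were close to each other. The gene spans 4.40 kb of chromosome 2R, from 23942538 to 23946936, and no annotated gene overlaps it.

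*Galphai* (FBgn0001104), which orients the spindle in dividing neuroblasts together with the product of *pins*, was by far the lowest member. It had 11, 6 and 17 reads in replicates 1, 2 and 3, or 14.1, 8.96 and 22.5 normalized counts, with a mean of 15.2 ± 6.82 (SD, n = 3) at percentile 17.1. Per kb of gene span it had 2.08 ± 0.93 normalized counts, below the median per kb of each list of markers of other cells, the lowest of which was 2.69 for cone and pigment cells. An RNA annotated within its span, *lncRNA:CR32385*, covers 39.8% of it and had no row. *Galphai* is on chromosome 3L, from 6972750 to 6980044.

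*Gbeta76C* (FBgn0004623), the eye beta subunit, had 3720, 3886 and 3909 normalized counts in replicates 1, 2 and 3. Under the authors' scaling the libraries differed little, with a mean of 3838 ± 103 (SD, n = 3). As shares of reads they were 0.0765%, 0.0853% and 0.0784%, and the 95% Wilson interval of replicate 2 lay above the others. The gene is short, 2.36 kb of chromosome 3L from 19687637 to 19689992, with 1 transcript in RefSeq and no overlapping gene. *Gbeta13F* (FBgn0001105), the beta subunit used in most tissues, had 875, 724 and 951 normalized counts, a mean of 850 ± 115 (SD, n = 3), and was lowest in replicate 2. It spans 6.06 kb of the X chromosome, from 15860115 to 15866175.

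*Gbeta5* (FBgn0030011) belongs to the branch of beta subunits that pair with regulators of G protein signalling in place of gamma subunits. It had 114, 115 and 116 normalized counts in replicates 1, 2 and 3, from 89, 77 and 88 reads, with a mean of 115 ± 0.96 (SD, n = 3). That SD was smaller than the 12.6 that counting alone would give on average, so the closeness of the libraries says little about precision. *Gbeta5* is a short gene of 1.54 kb on the X chromosome, from 8150731 to 8152275. *RSG7*, a regulator of the class that pairs with it, had 68.8 ± 3.96 normalized counts (SD, n = 3).

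*Ggamma30A* (FBgn0267252), the eye gamma subunit, ranked 9 among the 7602 genes by mean normalized count. It had 35870, 26140 and 38344 reads in replicates 1, 2 and 3, which makes 46137, 39042 and 50690 normalized counts with a mean of 45290 ± 5870 (SD, n = 3). Replicate 1 gave it 0.949% of reads, with a 95% Wilson interval from 0.939 to 0.958. For replicate 2 the share was 0.857%, between 0.846 and 0.867, and for replicate 3 it was 1.02%, between 1.01 and 1.03. The intervals, which cover counting error only, did not overlap. The gene spans 45.9 kb of chromosome 2L, from 9256563 to 9302494, with 8 transcripts in RefSeq. A long noncoding RNA gene, *lncRNA:CR45262*, covers 2.14% of that span and had no row.

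*Ggamma1* (FBgn0004921), the gamma subunit used in most tissues, had 972, 845 and 1149 normalized counts in replicates 1, 2 and 3. Its mean was 989 ± 152 (SD, n = 3), with the same order of libraries as *Ggamma30A*. It spans 3.39 kb of chromosome 2R, from 8901404 to 8904791. The 9 members together took 1.13% ± 0.08 of reads (SD, n = 3), and without *Ggamma30A* they took 0.186% ± 0.0062.

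**Figure D1:**
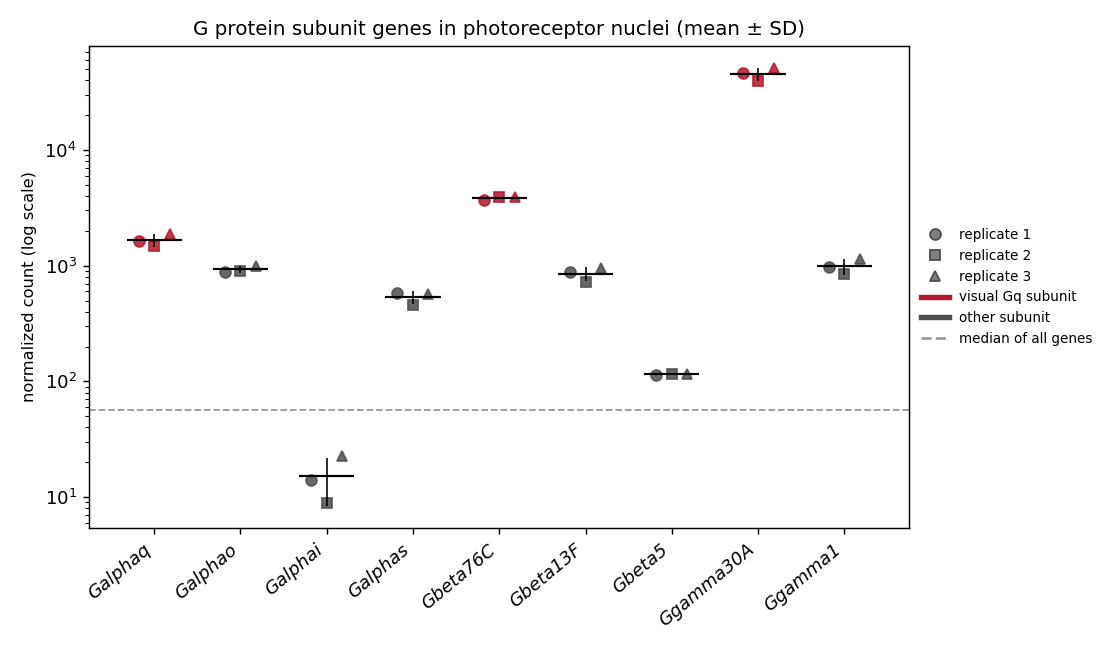
Normalized counts of the 9 members with a row (log axis) in each of the 3 libraries, with the mean and SD as black lines and the table median (56.8) as a dashed line. *Ggamma30A* stands at 45290 ± 5870 and *Galphai* is the only member below the median of all genes.

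Ranks and percentiles above are of normalized counts, which include the effect of gene length. Because longer genes tend to give more reads, members were then compared per kb of span, from the first to the last annotated base. Across the 7541 genes with an annotated span, Spearman's rank correlation between mean normalized count and span was 0.488, which is across genes and not replicates. The span includes introns, and whether intronic reads were counted is not given in the sources used here. If only exons were counted, division by span lowers genes with long introns too far.

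Per kb of span, *Gbeta76C* came first with 1579, 1650 and 1659 normalized counts per kb in replicates 1, 2 and 3, and a mean of 1629 ± 43.9 (SD, n = 3). *Ggamma30A* was next with 1004, 850 and 1104 per kb, a mean of 986 ± 128 (SD, n = 3). The order of these members was thus opposite to that of their normalized counts. *Ggamma1* followed at 292 ± 45.0 normalized counts per kb.

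*Galphaq* stood at 159 ± 19.7 normalized counts per kb, *Gbeta13F* at 140 ± 19.0 and *Galphas* at 122 ± 15.4 (SD, n = 3 each). These 3 genes were close: their ranges over libraries overlapped, from 142 to 181 for *Galphaq*, 120 to 157 for *Gbeta13F* and 104 to 132 for *Galphas*. Within each library, however, *Galphaq* was above *Gbeta13F* and *Gbeta13F* above *Galphas*. Their closeness held only per kb: undivided, the means were 1668, 850 and 537 normalized counts, and the ranges did not overlap. Per kb, *Gbeta5* followed at 74.6 ± 0.62, *Galphao* at 33.6 ± 2.20 and *Galphai* at 2.08 ± 0.93.

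The order of the 9 members per kb was the same in each library. For all 8 pairs of neighbours in it, the mean within-library log2 ratio was larger than its SD. The order was taken from the means of these same libraries, so the direction of the ratios follows from the sorting. Any error from the use of span is the same in every library and is not part of the SD. The smallest step was that between *Galphaq* and *Gbeta13F*, a log2 ratio of 0.19 ± 0.08, or 1.14-fold, against 1.97-fold without division by span. The widest was that between *Galphao* and *Galphai*, 4.11 ± 0.59. The median per kb over all genes was 19.6, which 8 of the 9 members exceeded, and 6 of the 9 were in the top 10% of genes per kb.

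Visual subunits were then set against the other subunits of their kind within each library, as log2 ratios per kb. *Gbeta76C* exceeded *Gbeta13F* by 3.45, 3.79 and 3.40 in replicates 1, 2 and 3, a mean of 3.55 ± 0.21 (SD, n = 3), or 11.7-fold, against 4.54-fold without division by span. Over *Gbeta5* it stood at 4.45 ± 0.03, or 21.8-fold, with nearly equal values in the 3 libraries, against 33.3-fold without division by span. *Gbeta76C* made up 88.4% ± 0.98 of the per kb sum of the 3 beta genes.

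The log2 ratio of *Ggamma30A* to *Ggamma1* per kb was 1.81, 1.77 and 1.70 in replicates 1, 2 and 3, a mean of 1.76 ± 0.05 (SD, n = 3), or 3.39-fold. The genes varied by 1.30-fold (*Ggamma30A*) and 1.36-fold (*Ggamma1*) between libraries but did so together, so their ratio was steady. That was not particular to this pair: the log2 ratios of *Ggamma1* and *Ggamma30A* to *Galphaq* had SDs of 0.05 and 0.06. Not divided by span, the ratio of *Ggamma30A* to *Ggamma1* was 45.9-fold, so its size rested on the division by length. *Ggamma30A* made up 77.2% ± 0.65 of the per kb sum of the 2 gamma genes.

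*Galphaq* exceeded *Galphao* per kb by a log2 ratio of 2.24 ± 0.11 (SD, n = 3), or 4.73-fold, against 1.78-fold without division by span. Its ratio to *Galphai* was 6.35 ± 0.49, or 81.7-fold. That ratio rests on the few reads of *Galphai*, and the part of counting error in its SD was not tested. The ratio to *Galphas* was small, 0.24, 0.45 and 0.48 in replicates 1, 2 and 3, with a mean of 0.39 ± 0.13, or 1.31-fold, against 3.11-fold without division by span. *Galphaq* thus made up 50.3% ± 1.70 of the per kb sum of the 4 alpha members with a row, *Galphas* 38.4% ± 2.25 and *Galphao* 10.6% ± 0.89. Undivided, *Galphaq* made up 52.9%, *Galphao* 29.6% and *Galphas* 17.0%, so which of *Galphao* and *Galphas* was higher depended on the division. These shares depend on the list of members, which leaves out the alpha subunit gene *cta*, at 82.4 ± 12.2 per kb. Each of these 6 ratios was above 0 in 3 of 3 libraries, with an exact two-sided sign-flip permutation p of 0.25 (adjusted p 0.25 over the 6), the smallest that 3 libraries allow.

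The visual subunits did not stand at one level per kb. *Gbeta76C* exceeded *Galphaq* by a log2 ratio of 3.36 ± 0.17, or 10.3-fold, and *Ggamma30A* exceeded *Galphaq* by 2.63 ± 0.06, or 6.18-fold (SD, n = 3). Without division by span these were 2.31-fold and 27.1-fold, so which of *Gbeta76C* and *Ggamma30A* was higher depended on the division. Against the effector gene *norpA*, at 1661 ± 138 normalized counts per kb, *Gbeta76C* could not be told apart: the log2 ratio was -0.09, 0.13 and -0.11 in replicates 1, 2 and 3, with a mean of -0.02 ± 0.13. That holds only per kb, since *Gbeta76C* and *norpA* span 2.36 and 42.8 kb, and without division by span the mean log2 ratio was -4.21. *Galphaq* lay below *norpA* in every library, with a log2 ratio of -3.38 ± 0.07 per kb and a mean of -5.42 without division by span.

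Against *ninaE*, the rhodopsin gene whose product activates the visual G protein, the log2 ratios per kb were -6.60 ± 0.17 for *Galphaq*, -3.24 ± 0.09 for *Gbeta76C* and -3.98 ± 0.17 for *Ggamma30A* (SD, n = 3). Without division by span the means were -4.18 for *Galphaq* and -2.97 for *Gbeta76C*, and that of *Ggamma30A* turned to 0.58, above *ninaE*. *ninaE* itself stood at 15432 ± 628 normalized counts per kb. On both scales the alpha subunit gene was the lowest of the 3 relative to the receptor gene. Nuclear RNA includes unspliced transcripts, and these levels are not those of messenger RNA or protein in the cell.

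**Figure D2:**
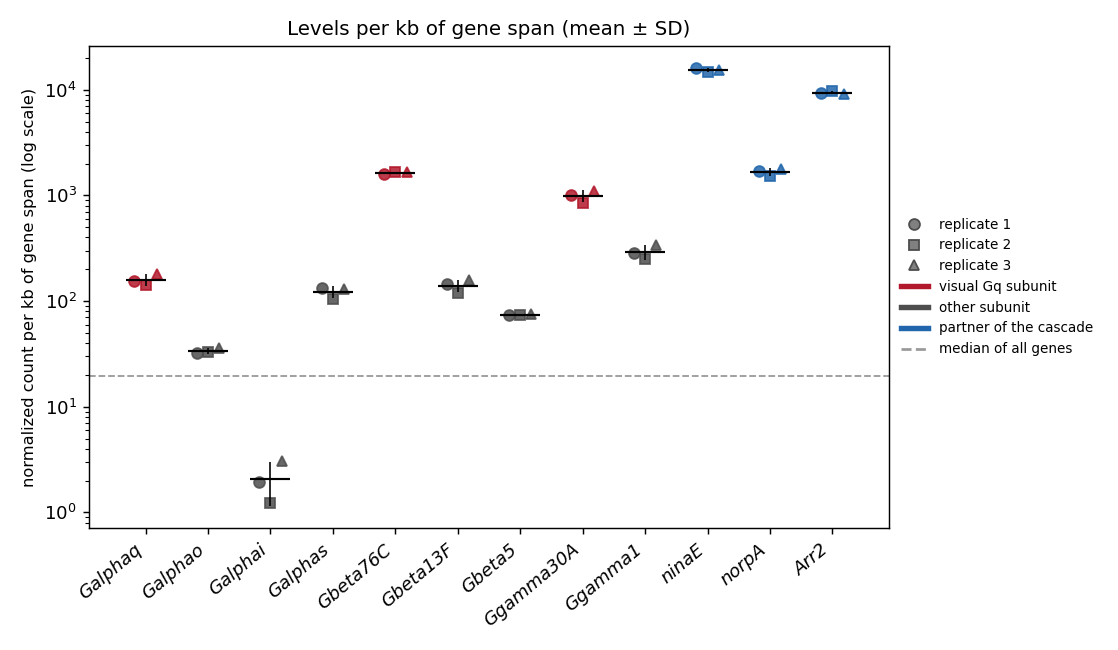
Normalized counts per kb of gene span (log axis) of the 9 members and of *ninaE*, *norpA* and *Arr2* in each of the 3 libraries, with means and SD as black lines and the median of all genes (19.6) as a dashed line. *Gbeta76C* (1629 ± 43.9) lies close to *norpA* (1661 ± 138) only after division by span (3838 and 71061 normalized counts undivided). *Galphaq* (159 ± 19.7) stands beside *Gbeta13F* and *Galphas*, also only after that division (1668, 850 and 537 normalized counts undivided).

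The libraries were compared for differences beyond counting error by a chi-square test of reads against the size factors, fitted to the 6903 genes whose mean normalized count reached 10. The test called 674 genes, or 9.76%, and 5 of the 9 members: *Galphaq*, *Galphas*, *Gbeta13F*, *Ggamma30A* and *Ggamma1*. The share called rises with the level of a gene, so the members are read against genes of like level. Of genes with a mean from 200 to 1000 normalized counts, 14.4% were called, and of the 4 members there *Galphas*, *Gbeta13F* and *Ggamma1* were called and *Galphao* was not. From 1000 to 10000 the share was 43.2%, with *Galphaq* called and *Gbeta76C* not. Above 10000 it was 94.9%, so the call of *Ggamma30A* is what nearly every gene of its level showed. In the lower classes, that of *Galphai* (10 to 50) and that of *Gbeta5* (50 to 200), 2.28% and 3.12% of genes were called, and neither member was.

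*Ggamma30A* was the member with the strongest call (chi-square test with Benjamini-Hochberg adjustment, adjusted p 3.12e-229), at 1.30-fold between its highest and lowest library. Its coefficient of variation was 13.0%, where counting alone would give 0.549%. *Ggamma1* differed by 1.36-fold (adjusted p 1.77e-06, same test), *Gbeta13F* by 1.31-fold (0.000416), *Galphaq* by 1.27-fold (4.2e-07) and *Galphas* by 1.26-fold (0.0312).

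*Gbeta76C* was not called although it was deeply read (adjusted p 0.399, same test), at 1.05-fold between its highest and lowest library. Its coefficient of variation was 2.69%, where counting would give 1.89% and the median gene with a mean of 200 to 10000 had 6.47%. *Galphao* (adjusted p 0.234), *Gbeta5* (0.998) and *Galphai* (0.389) were not called either. *Galphai* had a ratio of 2.51 between its highest and lowest library, which was not detectable as a difference at this depth.

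For 6 members replicate 2 gave the lowest value, namely for *Galphaq*, *Galphai*, *Galphas*, *Gbeta13F*, *Ggamma30A* and *Ggamma1*. These same 6 members were also lowest in that library when libraries were scaled to equal totals and by a trimmed mean. Over the 6903 genes tested, replicate 2 was the lowest for 39.7% under the authors' scaling, 24.1% under equal totals and 34.8% under the trimmed mean. Replicate 2 was also the library with the fewest reads, and the part of depth in this difference was not tested.

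Single calls depended on the scaling, on single libraries or on both, except that of *Ggamma30A*, which stood under every setting tried. The calls of *Galphaq* and *Ggamma1* stood under each scaling. With equal totals the calls of *Galphas* (adjusted p 0.275) and *Gbeta13F* (0.0687) ended and *Gbeta76C* was called (0.00317), and with trimmed mean scaling that of *Galphas* ended (0.0829). Without replicate 3 those of *Galphaq* (0.359) and *Ggamma1* (0.178) ended, and without replicate 2 those of *Galphas* (0.979) and *Gbeta13F* (0.503).

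**Figure D3:**
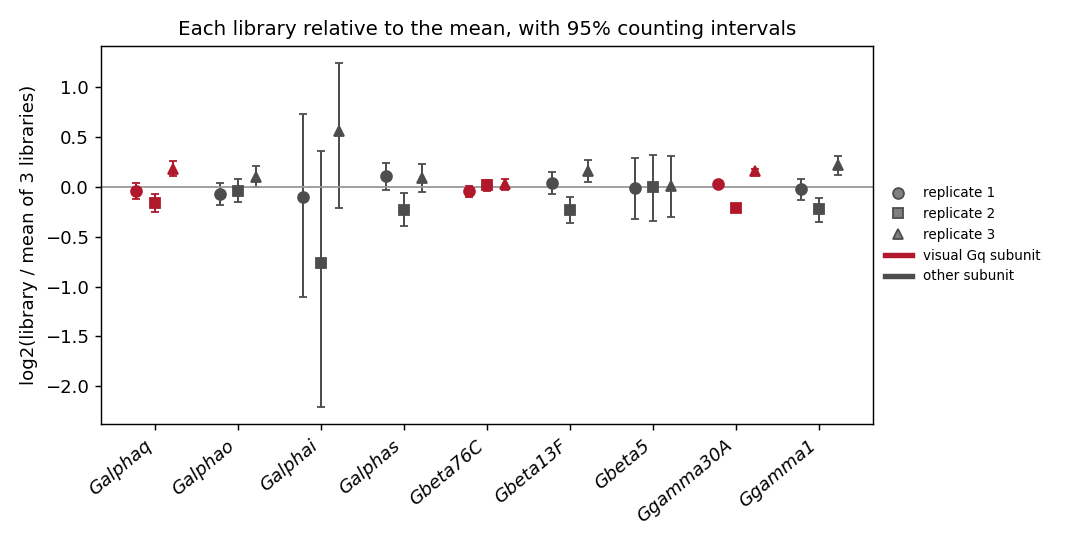
Each library relative to the mean of the 3 libraries (log2) for the 9 members, with 95% counting intervals of the reads as bars. Replicate 2 is the lowest library for *Galphaq*, *Galphai*, *Galphas*, *Gbeta13F*, *Ggamma30A* and *Ggamma1*. The 3 libraries of *Gbeta76C* differ by 1.05-fold at most under the authors' scaling, which is the one drawn.

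**Figure D4:**
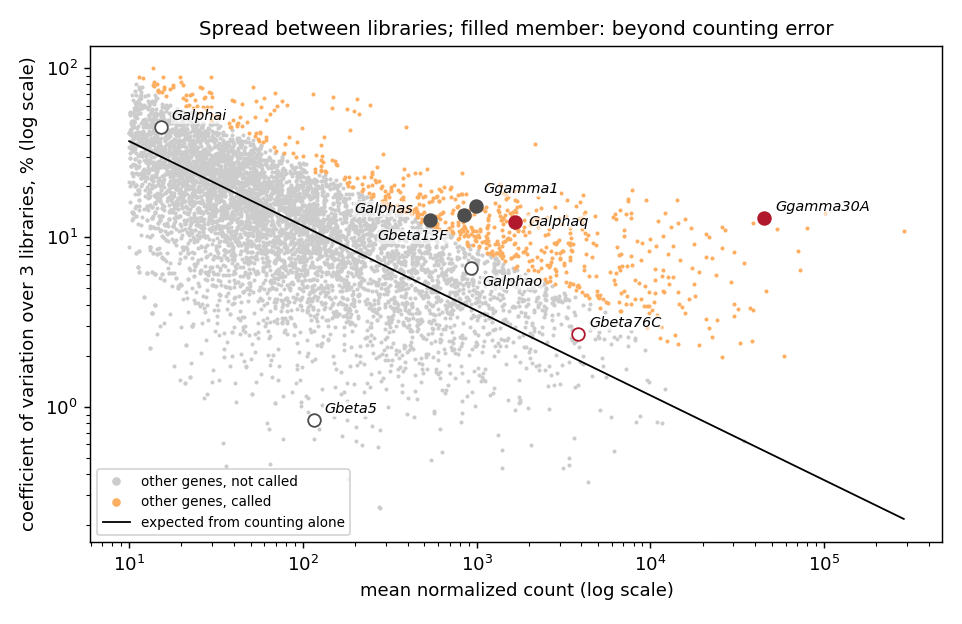
Coefficient of variation over the 3 libraries (%, log axis) against the mean normalized count (log axis) for the 6903 genes tested, with called genes in orange, the counting expectation as a line and members as large circles, filled where called. *Gbeta76C* (2.69%) lies near the line and *Ggamma30A* (13.0%) far above it.

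Genes that act with G proteins were taken from lists of 27 genes, of which 26 had a row. Of these, 20 were above the table median, 8 were in the top 10% of genes, and the chi-square test called 8 of 25 tested, against 9.76% of all genes tested. The called genes were *ninaE*, *cta*, *norpA*, *rut*, *Gprk1*, *Gprk2*, *Arr1* and *Arr2*, each with a mean above 200 normalized counts. *ninaE*, *norpA*, *Arr1* and *Arr2* lay above 10000, where 94.9% of all genes were called. *rut* and *Gprk1* lay from 1000 to 10000, where 43.2% were, and *cta* and *Gprk2* from 200 to 1000, where 14.4% were. Since the share called rises with level, 8 of 25 is not read as an excess. A further alpha subunit gene outside the members, *cta*, of the G12/13 class that acts in gastrulation, had 712, 524 and 797 reads, or 82.4 ± 12.2 normalized counts per kb (SD, n = 3). Its mean per kb lay between those of *Galphas* and *Gbeta5*, but in replicate 2 it had 70.3 per kb, below the 74.4 of *Gbeta5*.

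Of 9 effector genes, 8 were above the table median of normalized counts. *norpA* was the highest, at 71061 ± 5907 normalized counts (SD, n = 3). *Plc21C*, the other phospholipase C that Gq can act on, had 527 ± 33.4 normalized counts, which per kb was 10.6 ± 0.67 against 1661 ± 138 for *norpA*. *RhoGEF2*, an effector of *cta*, stood at 226 ± 4.15 per kb.

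The adenylyl cyclase genes, effectors of *Galphas*, differed widely. *rut*, the calmodulin-dependent cyclase known from learning mutants, had 128 ± 6.19 normalized counts per kb (SD, n = 3), near the 122 ± 15.4 of *Galphas*. That holds only per kb: undivided, *rut* had 4952 normalized counts and *Galphas* 537, over spans of 38.6 and 4.40 kb. *Ac3*, *Ac13E*, *Ac76E* and *Ac78C* had 5.44 ± 0.55, 2.43 ± 0.35, 2.55 ± 0.59 and 1.58 ± 0.22 per kb, all below the median of all genes per kb. Undivided, *Ac3* (83.7), *Ac13E* (106) and *Ac76E* (98.7) were above the table median of 56.8 normalized counts, and *Ac78C* (56.1) was below it.

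Regulators of the alpha subunits ranged from 1.51 to 103 normalized counts per kb. The chi-square test called 0 of 6, with 1 at an unadjusted p under 0.05, against 9.76% called of all genes tested. In the classes of level that these genes fall in, 2.28% to 14.4% of genes were called. *ric8a*, which folds alpha subunits and promotes nucleotide exchange, had 103 ± 15.0 normalized counts per kb, *pins*, which binds *Galphai*, 86.9 ± 1.64, and *Dhit*, a regulator that speeds GTP hydrolysis, 68.6 ± 5.5 (SD, n = 3 each). *kermit* had 31.3 ± 3.52 and *RSG7* 10.99 ± 0.63 per kb. *loco*, a regulator best known from glia, had 26, 17 and 22 reads, or 1.51 ± 0.21 per kb.

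Genes that end the receptor's signal included the highest of the lists per kb after *ninaE*. *Arr2* and *Arr1*, the visual arrestins, had 9392 ± 335 and 4745 ± 227 normalized counts per kb (SD, n = 3), against 30.0 ± 2.85 for *krz*, the arrestin of other receptors. The receptor kinase genes *Gprk1* and *Gprk2* had 9.17 ± 1.90 and 10.6 ± 1.28 per kb over long spans of 149 and 52.6 kb. Undivided, they had 1364 and 555 normalized counts, at percentiles 92.6 and 85.4 of the genes in the table. *Gprk1* varied by 1.50-fold between libraries and was called (chi-square test with Benjamini-Hochberg adjustment, adjusted p 5.12e-17), with the order of libraries of *Galphaq* and *Ggamma30A*.

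Gamma subunits carry a prenyl group at their C terminus, and of the 4 genes of that modification with a row, 0 were above the table median of normalized counts. *betaggt-I*, of the geranylgeranyl transferase, and *Fntb*, of the farnesyl transferase, had 15.9 ± 0.93 and 15.9 ± 0.98 normalized counts per kb (SD, n = 3). *Fnta*, the subunit that both enzymes share, had 36.3 ± 3.18, above the median of all genes per kb. *Sras*, the protease of the same pathway, had 7, 8 and 4 reads, and *ste14* had no row.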

How the data were processed

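The authors deposited log2 values of DESeq2-normalized counts for 7602 genes, with 1 column per RNA library matched to the labels by its description. Tools named in the submitters' processing notes include Trimmomatic, STAR and DESeq2, and the builds dm6 and BDGP6. Counting program, strandedness and gene filter are not given in the sources used here. Base 2 and an added 1 follow from the values: linear values were whole multiples of 1 step per library within 0.001 for 100% of values, which recovered the reads. Chi-square tests (scipy 1.17.1, numpy 2.4.6, pandas 2.3.3, Python 3.11.15) took a mean of at least 10, Benjamini-Hochberg adjustment over all genes and a threshold of 0.05, and were tested on simulated data. Symbols matched 7553 genes. Coordinates and spans are from RefSeq, Release 6. The tables at hand held no transcript or coding length, so gene span replaced the planned length. Replicates follow the titles. Named were the members, listed pathway genes, overlapping genes and, for the visual subunits, the 3 genes nearest over libraries. *CG30054*, *CG17760* and any other gene were named after their values or annotation were seen. Members and lists were chosen with earlier results of these data known. Reads may include PCR copies. Alternatives were scaling, pseudocount, minimum mean, length and left-out libraries. One listed effector gene is not reported here.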

Additional observations from a re-analysis of the deposited data

How the results depend on the processing

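Of 674 genes with spread beyond counting error, 448 were called at an adjusted p under 0.01, and 243 to 681 with 1 replicate left out, of which 342 came without replicate 2 and 243 without replicate 3. For members the count of 5 ran from 3 to 5, with 3 without replicate 2 and 3 without replicate 3. Minimum means of 1 and 50, no minimum and both scalings kept both counts within 1.5 times. The median percentile of members, 89.8, was 88.8 when genes below a mean of 10 were dropped, a change of background by construction. Ranked per kb, which is a different measure, it was 92.8, but 7 of the 9 members moved by more than 1 SD over libraries. *Galphao* fell from percentile 89.8 to 65.8 and *Gbeta5* rose from 64.5 to 84.0. Pseudocount 10 moved the level of 2 members by more than 1 SD, and the 6 ratios kept their direction under each pseudocount, without division by length and without each replicate. Not run was coding length, which the tables at hand do not give. Depth limits *Galphai*, on 6 to 17 reads. No paired analysis was possible because the RNA values form 1 group.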

Other observations

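Other genes of the *Galphaq* locus were also read. *CG30054*, which is annotated next to *Galphaq* on chromosome 2R from 12623726 to 12625352 and shares older names with it, had 97, 83 and 93 reads in replicates 1, 2 and 3. This makes 124 ± 0.91 normalized counts (SD, n = 3). *CG17760*, the next gene along, had no row. How reads of similar sequence were divided between these genes is not recorded in the table.

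The 3 genes nearest to each visual subunit in log2 normalized counts over the 3 libraries were found by Euclidean distance, as a description of level and library order that is not divided by length. For *Galphaq* they were *Imp* (distance 0.05, 1661 ± 243 normalized counts), *toy* (0.06, 1631 ± 199), which encodes a Pax6 factor of eye development, and *Hrb98DE* (0.06, 1660 ± 188). For *Gbeta76C* they were *crb* (0.07, 3839 ± 51.5), which encodes the Crumbs protein of the photoreceptor stalk membrane, *upSET* (0.10, 3900 ± 88.4) and *RhoGEF2* (0.11, 3955 ± 72.4). For *Ggamma30A* they were *Atpalpha* (0.19, 46125 ± 2234), the sodium pump gene, *cpx* (0.37, 39066 ± 4727), which encodes complexin, and *unc-13* (0.42, 53367 ± 5999). Few genes were as high as *Ggamma30A*, and its nearest genes were farther from it than those of *Galphaq* and *Gbeta76C* were from them.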
